A study of Mus musculus with 76 samples.

Results

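The nonclassical MHC class I genes examined here were 9 of the 55536 genes in the count table: *H2-T22*, *H2-T23*, *H2-T24*, *H2-T10*, *Gm11127*, *H2-Q4*, *H2-Q6*, *H2-Q7* and *H2-M3*, taken by symbol through the deposited gene table. They were chosen by membership in this family after group levels and fold changes of the same tumors, including those of *H2-T22*, had been seen. All 9 passed the filter on low counts in every comparison. The samples were whole subcutaneous flank tumors from Balb/c mice, 38 in all with 2 technical libraries each, and the libraries were summed per tumor. CT26 is a Balb/c colon carcinoma line and 4T1 a Balb/c mammary carcinoma line. CT26 and 4T1 tumors were injected with alum alone (5 tumors each) or with CAT-ABP + alum (6 tumors each), where CAT-ABP is recombinant catalase joined to a peptide that binds it to alum particles and acts outside the cells (extracellular catalase, EC CAT). The engineered lines 4T1-CAT and 4T1-control carried a doxycycline-inducible lentiviral cassette, for human catalase plus GFP in 4T1-CAT (intracellular catalase, IC CAT) and for GFP alone in 4T1-control, and each was a sorted GFP-positive pool rather than a single clone. Mice with these 2 lines ate doxycycline (DOX) diet, so that the controls carried the cassette and the drug too. They made up the groups 4T1-CAT alum (5 tumors), 4T1-CAT CAT-ABP + alum (5 tumors) and 4T1-control alum (6 tumors). Per the labels, DOX diet began on day 4, 20 μg CAT-ABP with 100 μg alum, or 100 μg alum alone, was injected on day 6, and tumors were taken on day 8. The study's text on these RNA samples places each step a day later.

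Classical class I molecules present peptides from inside the cell to CD8 T cells, and nonclassical ones are close relatives with fewer alleles and more specialized receptors. They share the light chain β2-microglobulin, and their genes lie in the T, Q and M regions of the mouse MHC, after the classical *H2-K1* and *H2-D1*. In tumors they are known chiefly as ligands of natural killer (NK) cells, γδ T cells and subsets of CD8 T cells, and interferon raises the transcription of many of them. In the GENCODE annotation of build GRCm38, the 9 members lay on chromosome 17 between 35379617, where *H2-Q4* starts, and 37274484, where *H2-M3* ends. *H2-T10* is annotated there as a polymorphic pseudogene and the other 8 as protein coding. The reference strain of that build carries the H-2b haplotype, whereas Balb/c mice and both tumor lines carry H-2d.

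To let sequences be compared, promoters are shown for members with a match to either motif marked below, which leaves out *H2-Q4* and *H2-M3*. Each is the 300 bases from 250 before to 50 after the annotated start (RefSeq, GRCm38.p6), and 7 of the 9 members matched an entry, all but *H2-T24* and *H2-T10*. In the first 3, capitals mark the core of the interferon-stimulated response element (ISRE), a site of interferon-induced factors, searched on both strands as GAAA, any 2 bases, GAAA. The stretches are chr17:36042693-36042992 for *H2-T22*, chr17:36032652-36032951 for *H2-T23* and chr17:36058322-36058621 for *Gm11127*, all on the minus strand.
H2-T22: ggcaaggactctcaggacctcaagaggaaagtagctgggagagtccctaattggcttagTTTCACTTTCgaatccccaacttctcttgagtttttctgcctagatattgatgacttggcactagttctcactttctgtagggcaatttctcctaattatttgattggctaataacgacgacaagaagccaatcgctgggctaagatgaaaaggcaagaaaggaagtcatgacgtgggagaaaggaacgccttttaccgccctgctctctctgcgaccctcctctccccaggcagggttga
H2-T23: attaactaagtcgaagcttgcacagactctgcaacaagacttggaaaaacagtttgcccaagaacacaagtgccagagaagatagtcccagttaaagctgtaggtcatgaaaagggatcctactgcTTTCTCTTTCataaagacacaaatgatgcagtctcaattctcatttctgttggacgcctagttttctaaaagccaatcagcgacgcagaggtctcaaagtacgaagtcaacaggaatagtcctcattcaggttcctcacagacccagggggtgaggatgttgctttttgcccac
Gm11127: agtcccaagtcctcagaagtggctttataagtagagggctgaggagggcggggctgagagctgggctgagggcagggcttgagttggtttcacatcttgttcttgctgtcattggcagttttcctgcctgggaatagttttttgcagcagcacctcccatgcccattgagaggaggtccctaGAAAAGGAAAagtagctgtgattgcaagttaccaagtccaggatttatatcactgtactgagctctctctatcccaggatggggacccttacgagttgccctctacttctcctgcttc
This core was present in 3 of the 7 member promoters and in 3.49% of all 27025 promoters of the same length. The search took exact letters only, so a promoter without a match may still hold a variant of the element. The promoters of *H2-Q4*, *H2-Q6*, *H2-Q7* and *H2-M3* hold TTTCACTTCT, a near match that was not counted. In the next pair, capitals mark GGGGA, any 2 bases, CCC on either strand, a form of the κB site of class I enhancer A, in *H2-Q6* (chr17:35424600-35424899) and *H2-Q7* (chr17:35438905-35439204), both on the plus strand.
H2-Q6: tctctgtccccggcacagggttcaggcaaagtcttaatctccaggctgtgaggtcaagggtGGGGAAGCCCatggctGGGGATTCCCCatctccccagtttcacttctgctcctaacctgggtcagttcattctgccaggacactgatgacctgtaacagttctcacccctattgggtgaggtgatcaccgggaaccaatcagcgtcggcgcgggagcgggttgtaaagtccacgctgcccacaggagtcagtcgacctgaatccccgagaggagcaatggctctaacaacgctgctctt
H2-Q7: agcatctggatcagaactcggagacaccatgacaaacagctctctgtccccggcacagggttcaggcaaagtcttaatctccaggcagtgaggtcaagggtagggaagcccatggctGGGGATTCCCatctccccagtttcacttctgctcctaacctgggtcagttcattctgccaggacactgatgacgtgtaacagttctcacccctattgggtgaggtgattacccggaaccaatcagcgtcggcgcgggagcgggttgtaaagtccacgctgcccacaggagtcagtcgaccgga
It was present in 2 of the 7 and in 1.58% of all promoters. The aligned promoters of *H2-Q6* and *H2-Q7* were identical in 254 of 340 columns (74.7%). Columns where a base faces a gap count as differences there, and the *H2-Q6* stretch of 300 bases begins inside that of *H2-Q7*. The identity over paired bases alone was therefore higher. TGACGC, letters of the X2 box, was present in *H2-Q4* and *H2-M3* (7.5% of all promoters), and CCAAT was present in all 7 (37.9%). Counted from the annotated start, the TGACGC match began at -46 in *H2-M3* but at 30, after the start, in *H2-Q4*. These are matches of letters in the reference strain and were not measured as binding.

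Reads from such related genes cannot always be assigned to a single copy. Windows were taken from the last 500 bases of the main transcript in the reference strain. This was the longest protein-coding transcript, or the longest of any type where none was coding. A 3′ library places reads near transcript ends, but whether they came from these ends was not checked. In these ends, 59.2% of the 50-base windows of *H2-T22* also occurred in *H2-T10* and in no other gene. The shares of windows found in any other gene were 51% for *Gm11127*, 38.1% for *H2-T23*, 35.9% for *H2-Q6*, 33.7% for *H2-Q4*, 6.21% for *H2-Q7* and 0% for *H2-T24* and *H2-M3*. Apart from *H2-T22*, *H2-T10* and *H2-Q7*, the genes sharing windows were mostly no class I genes: for *Gm11127* there were 29, led by *Patj* and *Trpc6*. No window of the *H2-Q6* end taken here occurred in *H2-Q7*. Between 97.3% and 100% of the above-zero library values of 8 members were not whole numbers, against 21.1% for *H2-M3* and a median of 14.3% over genes with counts in 60 or more libraries. Reads that match several genes are one way to such fractions, but how the pipeline made them is not given in the sources used here, and *H2-T24* had them with no shared window.

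The total count per tumor ran from 493044 to 9077549, with a median of 4827388. The index tags of the libraries began with 1 of 2 prefixes, taken here as 2 sequencing pools, with each tumor placed by its technical replicate 1 library. All CT26 tumors, all 4T1 CAT-ABP + alum tumors and 2 of the 5 4T1 alum tumors were in one, and the other 3 4T1 alum tumors and all engineered tumors were in the other. The epithelial markers *Epcam*, *Krt8*, *Krt18*, *Krt19*, *Cdh1* and *Cldn4* together reached 1472 to 2737 CPM (counts scaled to the TMM-adjusted library size) in the 27 4T1-derived tumors but only 18.5 to 32 CPM in the 11 CT26 tumors, so the defining epithelial markers were close to absent in CT26 tumors.

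Across the 7 groups, 6 of the 9 genes differed between the tumor lines in both line comparisons. Of all genes tested, 42.4% passed in alum tumors and 45.5% in CAT-ABP + alum tumors, and the share passing in both was not computed. *H2-T22*, *H2-T10*, *H2-M3* and *H2-Q4* were higher in CT26 tumors, and *Gm11127* and *H2-Q6* were many times lower. For *H2-T24* and *H2-Q7* the difference passed in alum tumors and not in CAT-ABP + alum tumors, and for *H2-T23* in neither. Over all 38 tumors the lines did not overlap in *H2-T22*, *H2-M3*, *Gm11127* and *H2-Q6*, and overlapped in the other 5. The share of all genes without overlap across the 38 tumors was not computed. In the alum and the CAT-ABP + alum line comparisons taken singly it was 28.6% and 21.4%. In edgeR's quasi-likelihood test of any difference among the 7 groups, 8 of the 9 members passed an adjusted p of 0.05, all but *H2-Q7*, against 54.7% of the 14646 genes tested. The members were picked with results of these tumors already known, so their p-values, adjusted over all genes, do not stand as independent evidence. The tests set group differences against the spread between tumors, which the labels number as biological replicates. In whole tumors, fewer cells of a type cannot be told apart from less RNA per cell.

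**Figure D1:**
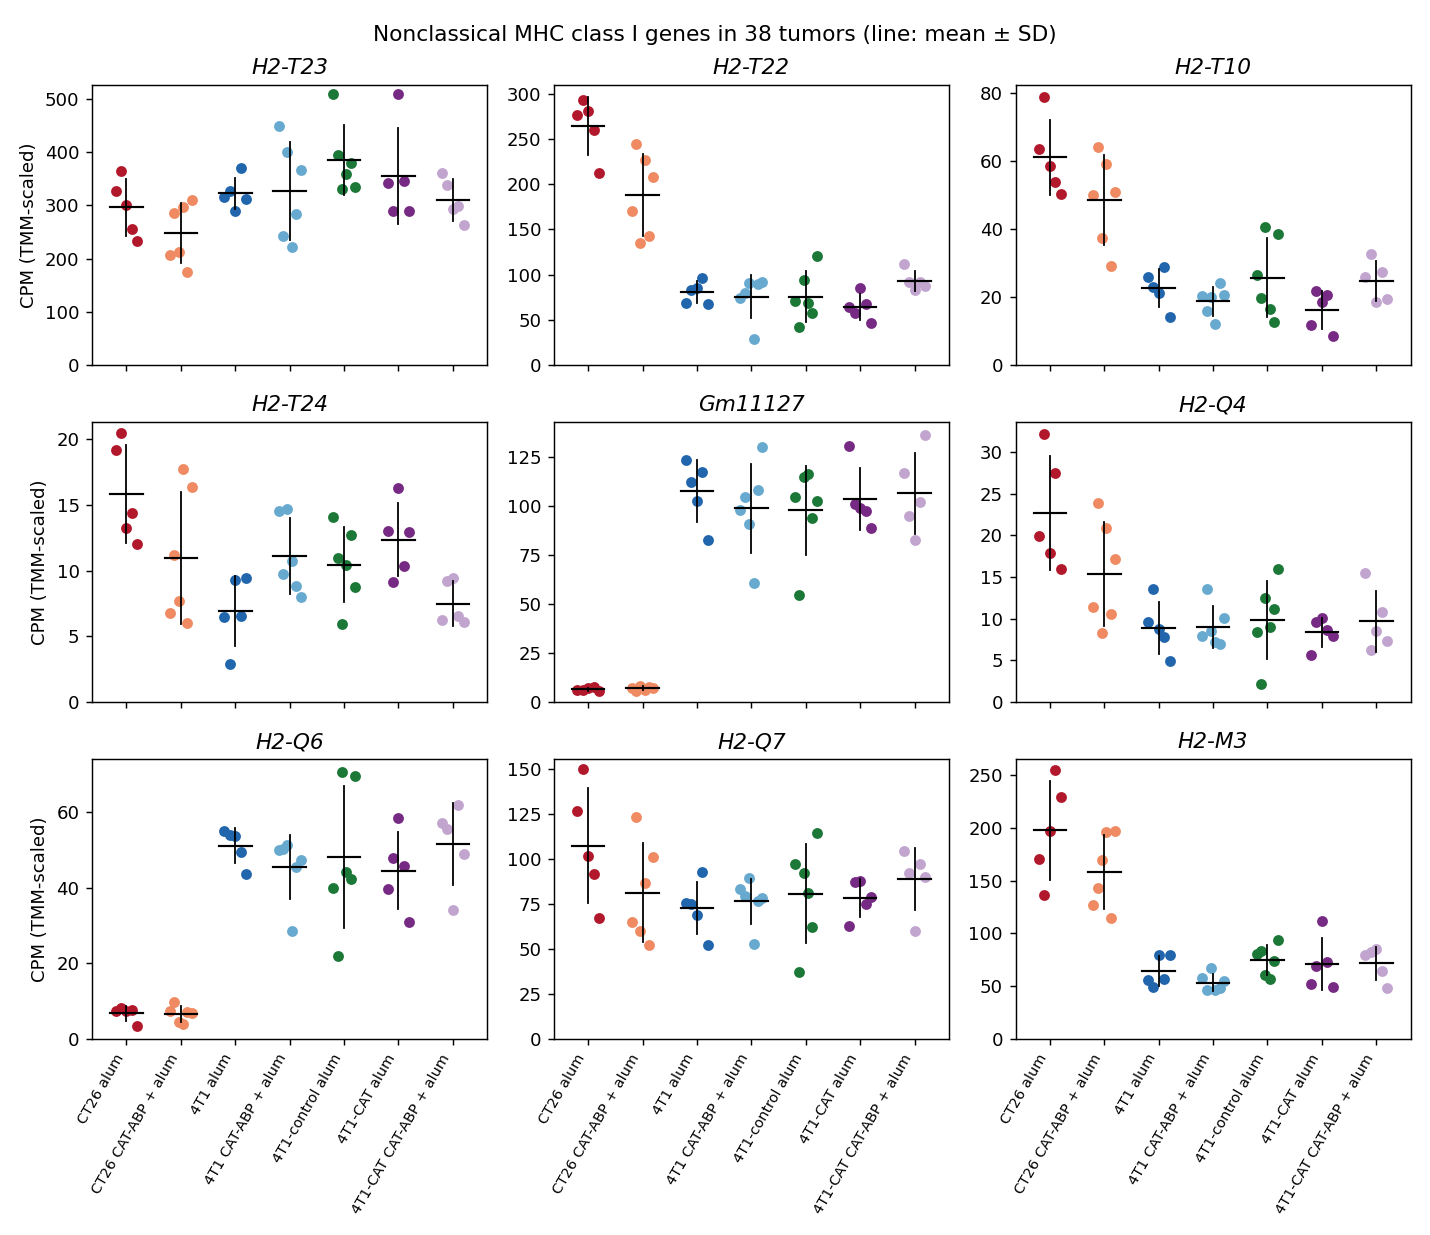
CPM (TMM-scaled, linear axes from 0) of the 9 genes in each of the 38 tumors, by group; each point is a tumor, horizontal lines are group means and vertical lines ± SD. *Gm11127* and *H2-Q6* are below 10 CPM in every CT26 tumor, and *H2-T22* and *H2-M3* are above every 4T1-derived tumor in every CT26 tumor.

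Among the T region genes, *H2-T22* encodes a ligand of γδ T cell receptors. Its levels were 277, 294, 281, 260 and 212 CPM in the 5 CT26 alum tumors and 68.9, 83.3, 85.7, 96.1 and 67.4 CPM in the 5 4T1 alum tumors. Every CT26 tumor was above every 4T1 tumor. The log2 fold change was 1.72 ± 0.15 (SE; adjusted p = 2.46e-07), the group means being 265 ± 31.8 (SD, n = 5) and 80.3 ± 12.1 CPM (SD, n = 5). Between CAT-ABP + alum tumors, which are other animals, it was 1.25 ± 0.21 (adjusted p = 9.27e-05), from 188 ± 45.4 (SD, n = 6) and 75.7 ± 24.1 CPM (SD, n = 6). Over all groups the 11 CT26 tumors spanned 135 to 294 CPM and the 27 4T1-derived tumors 28.6 to 121 CPM, without overlap.

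*H2-T10*, the close copy of *H2-T22* and also bound by γδ receptors, was at 63.4, 78.8, 58.6, 53.9 and 50.4 CPM in CT26 alum and at 25.9, 23, 21.3, 28.7 and 14.1 CPM in 4T1 alum tumors. These groups did not overlap either. Its log2 fold changes were 1.42 ± 0.19 in alum tumors (adjusted p = 1.82e-05) and 1.29 ± 0.19 in CAT-ABP + alum tumors (adjusted p = 2.20e-05). With the counts of *H2-T22* and *H2-T10* added as if a single gene, a choice made after the data were seen, the values were 1.66 and 1.27. The share of *H2-T10* in the pair averaged between 18.7% and 25.1% in all 7 groups, and the difference between the lines was about as large with the copies added.

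*H2-T23* encodes Qa-1, the ligand of the CD94/NKG2A receptor of NK and CD8 T cells. It was at 328, 365, 300, 256 and 233 CPM in CT26 alum tumors and at 316, 326, 289, 370 and 312 CPM in 4T1 alum tumors. The ranges overlapped, and the log2 fold change of -0.12 ± 0.15 did not pass (adjusted p = 0.55). In CAT-ABP + alum tumors it was -0.44 ± 0.19 (adjusted p = 0.066), from means of 248 ± 55.9 (SD, n = 6) and 327 ± 91.7 CPM (SD, n = 6). It passed without CT26 replicate 6 or 4T1 replicate 2 or 4 (adjusted p from 0.034 to 0.0499). The promoters of *H2-T23* and *H2-T22* both carry the ISRE core shown above. Of the receptor genes of Qa-1, *Klrc1*, which encodes NKG2A, averaged 10.7 ± 1.73 CPM in CT26 alum and 0.42 ± 0.29 CPM in 4T1 alum tumors (SD, n = 5 each), a log2 fold change of 4.60 ± 0.38 (adjusted p = 1.25e-07). *Klrd1*, which encodes CD94, differed by 2.66 ± 0.31 (adjusted p = 5.73e-06). In some 4T1 alum tumors *Klrc1* had no count, the others having up to 3.

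*H2-T24*, a T region gene of little-known function, was at 19.2, 20.4, 13.2, 14.4 and 12.1 CPM in CT26 alum and at 6.49, 2.87, 9.28, 6.58 and 9.41 CPM in 4T1 alum tumors. The groups did not overlap, and the log2 fold change was 1.16 ± 0.27 (adjusted p = 0.0028). Between CAT-ABP + alum tumors it was -0.05 ± 0.27 (adjusted p = 0.90), with tumors from 6.04 to 17.7 CPM in CT26 and from 8.01 to 14.7 CPM in 4T1. Only 10 to 55 counts stood behind a 4T1 alum value, and the change of the line difference with CAT-ABP is tested below.

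*Gm11127*, a predicted class I gene of the T region, showed the widest separation of the 9. It was at 6.32, 6.32, 6.95, 7.61 and 5.54 CPM in CT26 alum tumors and at 123.5, 113, 103, 118 and 82.8 CPM in 4T1 alum tumors. The log2 fold change was -4.03 ± 0.16, 16.4-fold higher in 4T1 (adjusted p = 1.05e-10). In CAT-ABP + alum tumors it was -3.87 ± 0.17, 14.7-fold (adjusted p = 6.72e-12). All 11 CT26 tumors lay between 5.44 and 8.33 CPM and all 27 4T1-derived tumors between 54.6 and 137 CPM. The counts in CT26 tumors were 13 to 53 per tumor, hence low but not absent. Its promoter carries the ISRE core too, and its direction was opposite to that of *H2-T22*. Epithelial markers moved with it, all 5 tested being lower in CT26 with a median log2 fold change of -6.40 in alum tumors. Whether tumor cells are its source was not tested.

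The Q region genes *H2-Q6* and *H2-Q7* encode Qa-2, a class I molecule attached by a lipid anchor. *H2-Q6* was at 7.31, 8.27, 7.49, 7.61 and 3.37 CPM in CT26 alum and at 55, 54, 53.9, 49.5 and 43.6 CPM in 4T1 alum tumors. It was 7.56-fold higher in 4T1 (log2 fold change -2.92 ± 0.20; adjusted p = 1.66e-08), and 7.07-fold in CAT-ABP + alum tumors (-2.82 ± 0.20; adjusted p = 1.70e-09). The lines did not overlap over the 38 tumors. *H2-Q7* was at 127, 149.8, 102, 91.6 and 67 CPM in CT26 alum and at 75.4, 74.7, 69, 92.5 and 52 CPM in 4T1 alum tumors. These ranges overlapped, with a log2 fold change of 0.56 ± 0.20 (adjusted p = 0.040) that was lost in 7 of the 10 fits without a tumor, those without CT26 replicate 1, 2 or 3 or 4T1 replicate 1, 2, 3 or 5 (adjusted p from 0.056 to 0.10). In CAT-ABP + alum tumors it was 0.04 ± 0.19 (adjusted p = 0.88).

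The share of *H2-Q6* among counts of both Qa-2 genes averaged 6.00% (4.79% to 7.67%) in CT26 alum and 7.82% (4.26% to 11.8%) in CT26 CAT-ABP + alum tumors, against 36.1% to 41.7% in the 5 4T1-derived groups, whose lowest tumor was at 28.2%. Added as a single gene after the data were seen, both Qa-2 genes gave a log2 fold change of -0.12 (adjusted p = 0.64) between the lines in alum tumors and of -0.52 (adjusted p = 0.029) in CAT-ABP + alum tumors. Read assignment and transcription cannot be told apart in these counts.

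**Figure D2:**
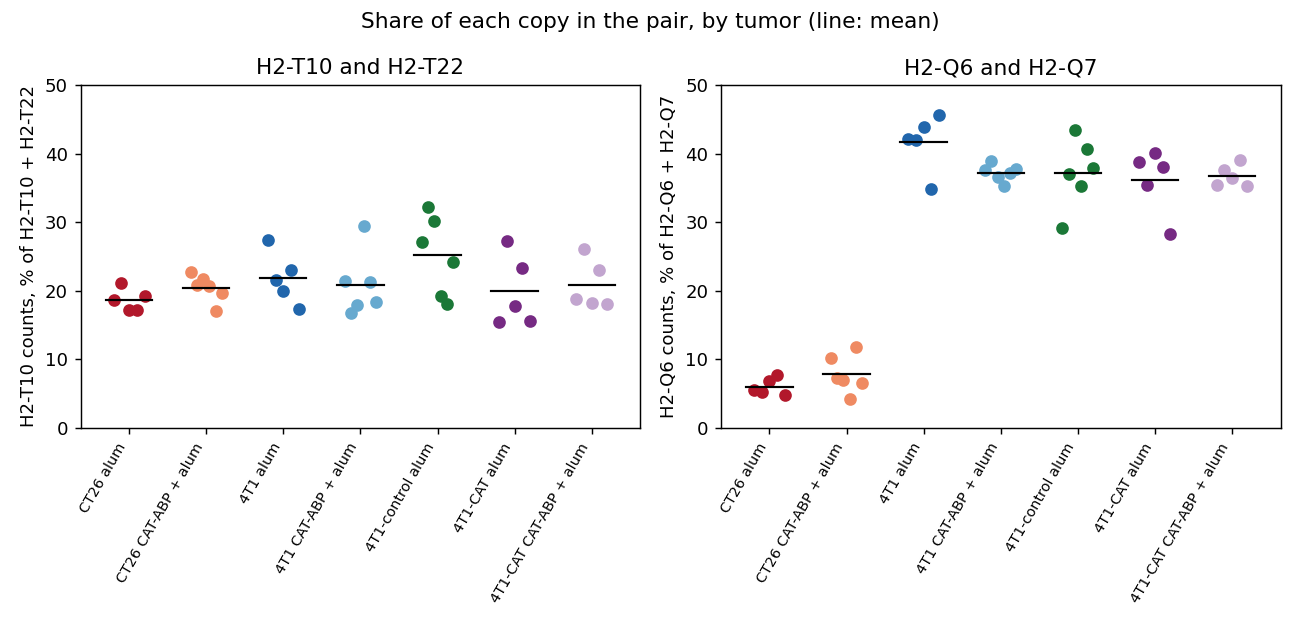
Share of *H2-T10* in the counts of *H2-T10* and *H2-T22* (left) and of *H2-Q6* in those of *H2-Q6* and *H2-Q7* (right), in percent, for each of the 38 tumors by group; lines are group means. The left shares overlap across all groups, while on the right no CT26 tumor exceeds 11.8% and no 4T1-derived tumor is under 28.2%.

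*H2-Q4*, a further Q region class I gene, was at 20, 32.1, 17.8, 27.5 and 15.9 CPM in CT26 alum and at 9.56, 13.5, 8.73, 7.77 and 4.96 CPM in 4T1 alum tumors. The groups did not overlap, and the log2 fold change was 1.33 ± 0.26 (adjusted p = 6.8e-04). In CAT-ABP + alum tumors it was 0.73 ± 0.26 (adjusted p = 0.028), and there the ranges overlapped, from 8.33 to 23.9 CPM in CT26 and from 6.91 to 13.6 CPM in 4T1. That call was lost in 5 of 12 fits without a tumor, those without CT26 replicate 2 or 4 or 4T1 replicate 1, 3 or 5 (adjusted p from 0.051 to 0.081).

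*H2-M3*, which presents N-formylated peptides of bacterial and mitochondrial origin, was at 171, 136, 197, 255 and 229 CPM in CT26 alum and at 55.6, 49.1, 79.1, 56.7 and 79.2 CPM in 4T1 alum tumors. All CT26 tumors were higher. Log2 fold changes were 1.63 ± 0.19 (adjusted p = 6.00e-06) and, in CAT-ABP + alum tumors, 1.52 ± 0.16 (adjusted p = 4.61e-07). The 11 CT26 tumors lay between 115 and 255 CPM and the 27 4T1-derived tumors between 45.9 and 111 CPM.

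In all, 8 members passed between CT26 alum and 4T1 alum tumors, 6 higher and 2 lower in CT26, where 42.4% of the 12817 genes tested passed (21.3% higher, 21.1% lower). In 7 of the 9 the tumors of the 2 groups did not overlap, against 28.6% of genes. Between CAT-ABP + alum tumors 6 passed, 4 higher and 2 lower, where 45.5% of 13016 genes passed (21.8% higher, 23.7% lower), and 5 did not overlap, against 21.4%. By the index tags of technical replicate 1, the second comparison lies within a single pool. The tags of technical replicate 2 were not used to place tumors. In the first, only the 4T1 alum group has tumors in both pools. A pool block there sets CT26 against the 2 4T1 alum tumors of its own pool, so the fold changes rest on those 2. With this block, *Gm11127* was at -4.17, *H2-Q6* at -3.01, *H2-M3* at 1.91, *H2-T22* at 1.80 and *H2-T10* at 1.31 on the log2 scale. *H2-T24* was at 1.76 (adjusted p = 0.0028) and *H2-Q4* at 0.94 (adjusted p = 0.044). *H2-T23* stayed uncalled at -0.12, and *H2-Q7* lost its call at 0.51 (adjusted p = 0.20), which left 7 members.

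**Figure D3:**
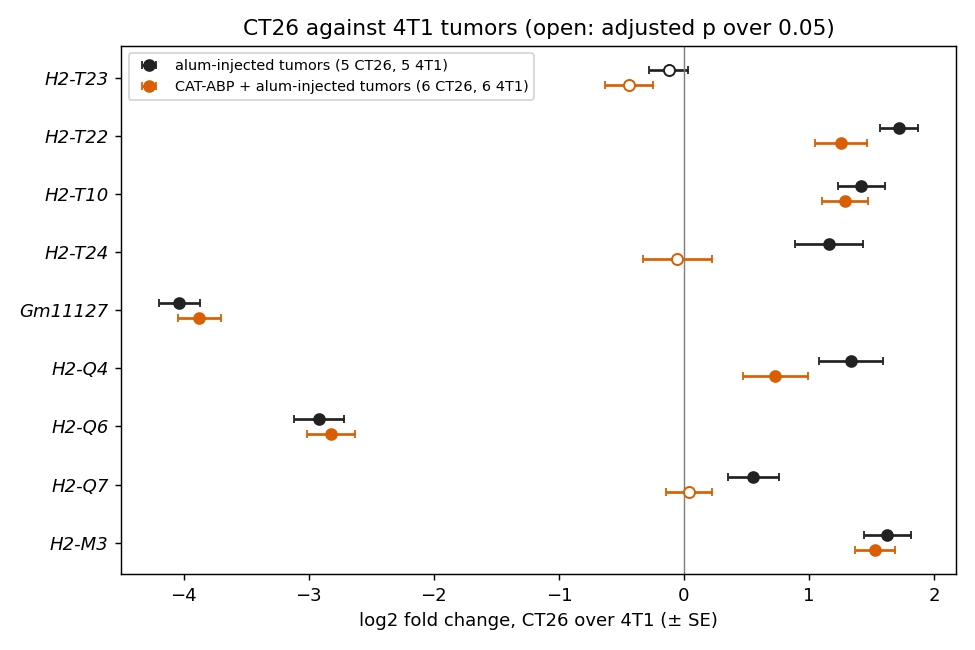
Log2 fold change of CT26 over 4T1 tumors for each gene (points, with bars of ± SE) in alum tumors (black; 5 against 5) and in CAT-ABP + alum tumors (orange; 6 against 6); open points did not pass an adjusted p of 0.05. *Gm11127* and *H2-Q6* lie near -4 and -3 in both sets, and *H2-T24* is at 1.16 in the first set and -0.05 in the second.

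The rest of the class I pathway was mostly higher in CT26 tumors. Of 16 genes for classical class I molecules and peptide loading, 13 were higher and 1 lower in alum tumors (median log2 fold change 0.94, against 0.02 over all genes) and 11 higher and 1 lower in CAT-ABP + alum tumors (median 0.57). In alum tumors *B2m*, the shared light chain, was at 1.48 ± 0.20 (adjusted p = 3.40e-05), *Tap1*, a subunit of the peptide transporter, at 1.98 ± 0.25 (adjusted p = 1.30e-05), and the classical heavy chains *H2-K1* and *H2-D1* at 0.92 ± 0.18 and 0.94 ± 0.18 on the log2 scale. The smallest adjusted p was that of *Psmb9*, an immunoproteasome subunit (1.72 ± 0.13; adjusted p = 6.65e-08). The values of *H2-T22* and *H2-M3* above were larger than that of *H2-K1*, a difference between genes that was not tested, and *Gm11127* and *H2-Q6* had the opposite sign. Another T region gene, *H2-Bl*, looked up after the data were seen, was also lower in CT26 (-1.27 ± 0.20; adjusted p = 1.08e-04).

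Of 17 tested regulators of class I and interferon signaling, 7 were higher and 1 lower in CT26 alum tumors, and 6 were higher and 1 lower in CAT-ABP + alum tumors. These 8 and 7 of 17 are near the background of 42.4% and 45.5% of all genes. *Nlrc5*, the transactivator of class I promoters, was at 1.11 ± 0.25 (adjusted p = 0.0022) and *Irf1*, an interferon-induced activator, was 2.15-fold higher (adjusted p = 7.05e-04). Interferon targets were higher for 17 of 18 genes in alum tumors (median 2.04) and 16 of 16 in CAT-ABP + alum tumors (median 1.56). Among 8 other nonclassical or class I-like genes tested, none was higher and 3 were lower in CT26 alum tumors, no larger a share than the 42.4% of all genes that passed: *Cd1d1*, which presents lipids to NKT cells (-1.49 ± 0.33), *H60b*, an NKG2D ligand (-1.22 ± 0.33), and *Mr1*, which presents vitamin B metabolites (-0.88 ± 0.34). In CAT-ABP + alum tumors 1 was higher, *Fcgrt*, the neonatal Fc receptor (0.53 ± 0.18), and 2 were lower, *Cd1d1* (-1.45 ± 0.28) and *Procr*, the protein C receptor (-0.39 ± 0.13), where 45.5% of all genes passed.

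Genes of receptors for these molecules and of the cells that bear them were higher in CT26, 6 of 6 tested in alum tumors (median 3.12) and 5 of 5 in CAT-ABP + alum tumors. NK cell markers summed to 428 to 700 CPM in CT26 alum and 10.7 to 19.1 CPM in 4T1 alum tumors, and T cell markers to 64.3 to 138 and 13.3 to 22.2 CPM. Of the marker genes tested, 3 of 4 for NK cells and 5 of 5 for T cells passed, all higher in CT26. *Trdc*, the constant region of the γδ receptor, averaged 2.75 ± 0.88 CPM in CT26 alum and 0.59 ± 0.40 CPM in 4T1 alum tumors (SD, n = 5 each) and was below the count filter in that comparison. The part of infiltrating cells in the levels of *H2-T22*, *H2-T10*, *H2-Q4* and *H2-M3* was not tested.

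Extracellular catalase was then compared with alum alone, the question of the study being whether added catalase changes the tumor. In CT26 tumors *H2-T22* was at 170, 244, 135, 227, 143 and 208 CPM with CAT-ABP + alum and at 212 to 294 CPM with alum alone. Of the 6 tumors with CAT-ABP, 4 lay below every alum tumor, and the ranges overlapped. This gene was picked with this contrast already seen, so its log2 fold change of -0.50 ± 0.18 is given as a description. Of the 9 members 8 had fold changes below 0, from -0.53 ± 0.28 for *H2-T24* to -0.04 ± 0.29 for *H2-Q6*, with *Gm11127* at 0.08 ± 0.20 and a median of -0.33 (all genes, 0.00). None of the members passed (lowest adjusted p = 0.9997), where 0% of the 12830 genes passed in edgeR, 311 had an unadjusted p under 0.05 and DESeq2 passed 1. All 16 classical class I and peptide loading genes also lay below 0 (median -0.37), as did all 18 interferon targets (median -0.43), none of them past the threshold. NK cell markers summed to 105 to 673 CPM with CAT-ABP and 428 to 700 CPM with alum, and their part in these values was not tested.

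In 4T1 tumors CAT-ABP left the 9 genes between -0.27 ± 0.15 (*H2-M3*) and 0.64 ± 0.26 (*H2-T24*) on the log2 scale, with a median of -0.06. None passed (lowest adjusted p = 0.9993), nor did any of the 13092 genes (0%), of which 377 had an unadjusted p under 0.05 and 0 passed in DESeq2. By the index tags of technical replicate 1, all CAT-ABP tumors were in a single pool and 3 of the 5 alum tumors in the other. Treatment and pool as read this way were partly confounded. With the pool as a block *H2-M3* was at 0.03 and *H2-T24* at 1.25, neither past the threshold. Both values rest on the 2 alum tumors in the pool of the CAT-ABP tumors, which had 19 and 10 counts of *H2-T24*. *H2-T24* was at 14.6, 9.71, 14.7, 10.7, 8.79 and 8.01 CPM with CAT-ABP and at 2.87 to 9.41 CPM with alum, the ranges overlapping. The difference of the CAT-ABP effect between the lines was tested as an interaction. *H2-T24* had the largest value, -1.19 ± 0.41 in CT26 minus 4T1. With the pool as a block it was -1.80, which again rests on those 2 alum tumors for 4T1 alum. Neither *H2-T24* nor any other member passed, nor any of 14160 genes (0%), 509 of which had an unadjusted p under 0.05 and 0 of which passed in DESeq2.

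Intracellular catalase, as 4T1-CAT alum against 4T1-control alum, gave member fold changes from -0.68 ± 0.30 (*H2-T10*) to 0.25 ± 0.24 (*H2-T24*) with none past the threshold (lowest adjusted p = 0.93), where 0% of 12534 genes passed, 637 had an unadjusted p under 0.05 and DESeq2 passed 6. *H2-T10* was at 11.7, 21.6, 18.4, 20.4 and 8.64 CPM in 4T1-CAT and spanned 12.7 to 40.5 CPM in 4T1-control tumors, the ranges overlapping. *Gm11127* and *H2-Q6*, the genes that separated the lines, were at 0.05 ± 0.16 and -0.18 ± 0.21.

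The study also added CAT-ABP to 4T1-CAT tumors. *H2-T22* was at 112, 91.9, 83.1, 91.8 and 87.2 CPM with CAT-ABP and at 64, 57.8, 84.9, 67.1 and 46.7 CPM with alum alone. All but 1 alum tumor were below every CAT-ABP tumor, and the log2 fold change of 0.54 ± 0.14 did not pass in edgeR (adjusted p = 0.19) but did in DESeq2 (0.53; adjusted p = 0.036). *H2-T10* followed at 0.59 ± 0.23 (adjusted p = 0.25), and both copies added gave 0.56 (adjusted p = 0.19). *H2-T24* had the opposite sign, with 13, 9.14, 16.3, 10.4 and 13 CPM with alum and 6.22, 9.23, 9.40, 6.51 and 6.05 CPM with CAT-ABP, a log2 fold change of -0.72 ± 0.21 (adjusted p = 0.19; in DESeq2 adjusted p = 0.059). In edgeR 0% of 13093 genes passed, although 2000 had an unadjusted p under 0.05 and DESeq2 passed 204 (2.14% of those it tested), *H2-T22* among them. No marker gene passed, but cell type markers moved beside these values: all 4 T cell (median log2 fold change -0.72), 6 fibroblast (-0.39), 5 endothelial (-0.18), 5 dendritic cell (-0.22) and 5 skeletal muscle markers tested (-0.67) lay below 0, and all 5 epithelial ones above it (0.23). Summed T cell markers spanned 21.6 to 38.3 CPM with CAT-ABP and 19.4 to 81.7 CPM with alum, and summed epithelial markers 1643 to 2593 and 1719 to 2256 CPM. In the other lists, 1 of 7 macrophage, 1 of 4 NK cell, 2 of 5 neutrophil and 1 of 4 erythroid markers tested lay above 0. The 1 B and plasma cell marker tested lay below it. The part of these cell types in the values of *H2-T22* and *H2-T24* was not tested. Against 4T1-control alum, which had neither CAT-ABP nor human catalase, 4T1-CAT CAT-ABP + alum tumors had *H2-T22* at 0.26 ± 0.19 and *H2-T24* at -0.46 ± 0.24. No member passed (lowest adjusted p = 0.28) where 0.0235% of 12781 genes did, 2162 had an unadjusted p under 0.05 and DESeq2 passed 459. Without 4T1-control replicate 3, edgeR passed 575 genes, and without replicate 2 it passed 131. These 3 comparisons share groups with each other, so the 4T1-CAT alum values enter 2 of them. That group had the lowest mean of all groups for *H2-T22* (64.1 CPM) and *H2-T10* (16.2 CPM). For *H2-T24* it had the highest mean of the 4T1-derived groups (12.35 CPM). Against 4T1-control alum, nearly all lists of cells other than tumor cells lay above 0 in it, none past the threshold. This held for all T cell, macrophage, neutrophil, fibroblast, endothelial, skeletal muscle and erythroid markers tested, and for the 1 B and plasma cell marker. Of dendritic cell and NK cell markers 3 of 4 each did, and of epithelial ones 2 of 5. 4T1-control tumors were also set against unmodified 4T1 tumors, both given alum, but only the former had the cassette and DOX diet. By the index tags, all 6 4T1-control tumors were in the pool that held 3 of the 5 4T1 alum tumors. The 9 genes lay between -0.12 ± 0.16 and 0.54 ± 0.29, none past the threshold (lowest adjusted p = 0.54; 0% of 12431 genes, 1307 with an unadjusted p under 0.05, 28 in DESeq2).

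**Figure D4:**
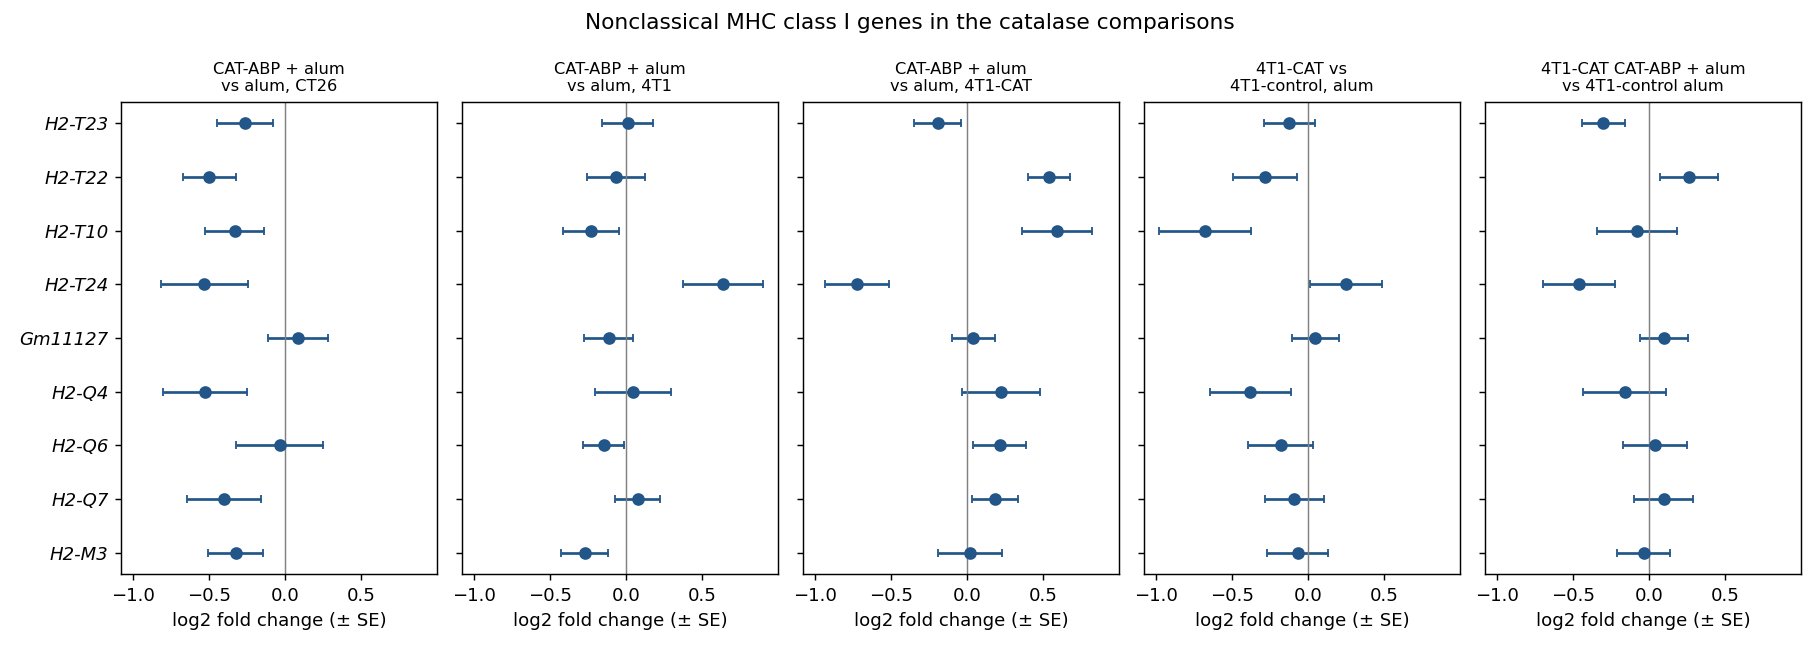
Log2 fold change (points, bars ± SE) of the 9 genes in the 5 catalase comparisons, named above each panel. No member passed an adjusted p of 0.05 in edgeR; 8 of 9 points lie below 0 in CT26, and *H2-T22* and *H2-T24* lie at 0.54 and -0.72 in 4T1-CAT.

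With the group means taken out, the members also differed in how they varied from tumor to tumor. Over the 38 tumors, Pearson's r of group-centred log2 CPM was 0.75 for *H2-T22* with *H2-Q7*, 0.74 for *H2-Q4* with *H2-Q7*, 0.72 for *H2-Q6* with *H2-Q7* and 0.70 for *H2-T22* with *H2-T10*. *H2-T24* and *H2-M3* stood outside this set, at 0.05 and 0.22 with *H2-T22* and at 0.46 with each other, and *Gm11127* with *H2-T24* was at -0.37. The highest r of *H2-T24* was with *H2-T23* (0.56). *H2-T23* and *Gm11127* lay between: *H2-T23* was at 0.49 with *H2-Q7* and 0.18 with *H2-Q4*, and *Gm11127* at 0.51 with *H2-Q6* and 0.19 with *H2-T10*. *H2-Q7* ran with *H2-K1* (r = 0.93) and *H2-D1* (0.90), genes of related sequence, and *H2-M3* with *B2m* (0.82) but not with *H2-K1* (-0.04). These values are descriptions, as tumors share pools as read from the index tags and differ in depth and in cell makeup.

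**Figure D5:**
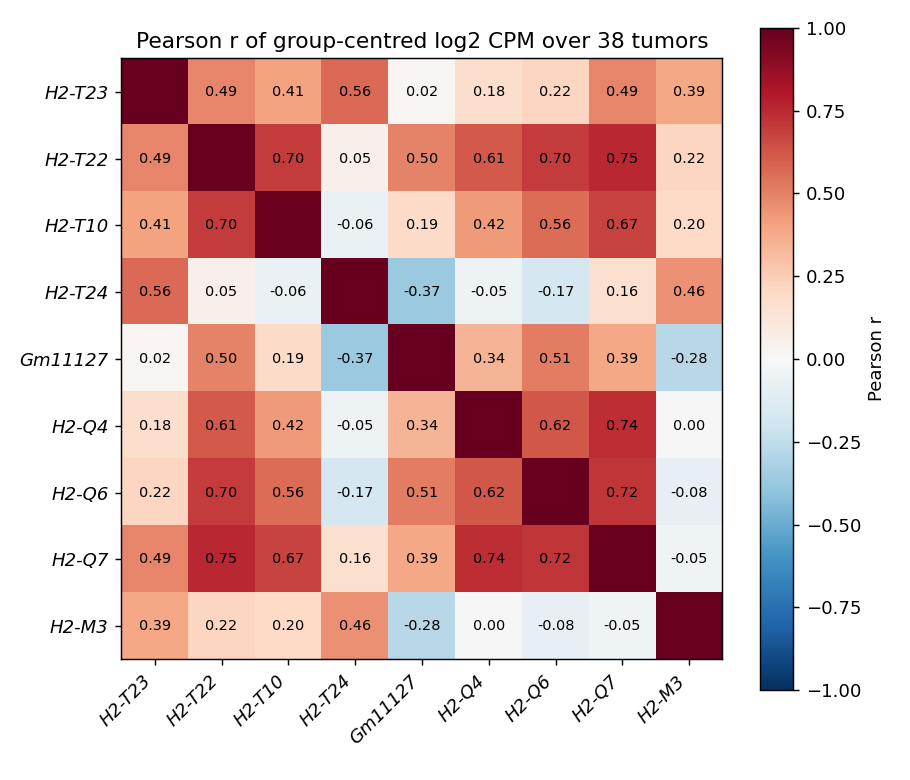
Pearson's r between each pair of the 9 genes over 38 tumors, from log2 CPM with each group's mean subtracted; red is positive and blue negative. The Q region genes, *H2-T22* and *H2-T10* form a block with r from 0.42 to 0.75, while *H2-T24* and *H2-M3* lie outside it. *H2-T23* and *Gm11127* reach 0.49 and 0.51 with genes of the block but are lower with others of it.

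For the 3 members with the highest median CPM, the other genes most alike among the 14637 that passed the filter were taken by the same measure, up to 5 for each. For *H2-T22* they were *Nlrc5* (0.88), *Cmtr1* (0.84), *Lgals3bp* (0.83), *Tapbp* (0.83) and *H2-D1* (0.82). For *H2-T23* they included *Irgm1* (0.82), *Samhd1* (0.78), *Sod2* (0.78) and *Irf9* (0.77). For *Gm11127* they were *Sephs1* (0.83), *Tcim* (0.83), *Neil3* (0.82), *Slc1a4* (0.81) and *Gpr161* (0.80). The genes named for the 3 members did not overlap.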

How the data were processed

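RNA of whole tumors was made into 3′ digital gene expression libraries (HT3DGE), sequenced on a NextSeq, and turned by the authors into estimated counts per gene with the Smart-seq2 pipeline. Aligner, build and handling of molecular identifiers are not given in the sources used here. The deposited estimated counts are not normalized, and 39.7% of the above-zero values are not whole (tolerance 1e-06). Totals of the 76 libraries ran from 46233 to 6958626. The authors left out some shallow libraries without naming them; here all were kept, summed per tumor and rounded. Tests used edgeR 4.0.16 (quasi-likelihood, filterByExpr, TMM) with Benjamini-Hochberg adjustment over all genes and a threshold of 0.05, and DESeq2 1.42.0 as an alternative. CPM are TMM-scaled, and log2 CPM used a prior count of 2. The main test was tested on simulated data. Windows and positions came from GENCODE M21. Every member is named, with *B2m*, *H2-K1*, *H2-D1*, *Tap1*, *Nlrc5*, *Irf1*, *Klrc1*, *Klrd1* and *Trdc* and up to 3 further genes per list. Members and lists were chosen with earlier results of these data known. Amino acid sequences were not used here. Some genes that the naming rule covers are not reported here.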

Additional observations from a re-analysis of the deposited data

Results flagged for a closer look

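Of the 63 sets of a gene and a group, 7 held a tumor whose log2 CPM lay far from the others of its group (Dixon's test at the 95% level). Chance would give about 3.1 if the sets were independent. They are not, as the genes were measured in the same tumors and vary together, so no excess over chance can be read from this. In all 7 the tumor was the lowest. In 4T1 CAT-ABP + alum, replicate 4 was low for *H2-T22* (28.6 CPM, the others 74.4 to 91.8), *H2-Q6* (28.6 CPM, the others 45.4 to 51.4) and *H2-Q7* (52.5 CPM, the others 76.6 to 89.1). In 4T1-control alum, replicate 2 was low for *Gm11127* (54.6 CPM, the others 94.2 to 116) and *H2-Q4* (2.18 CPM, the others 8.33 to 16). These were the shallowest tumors of their groups, with totals of 837403 and 493044 counts. In CT26 alum, replicate 5 was low for *H2-Q6* (3.37 CPM, the others 7.31 to 8.27), and in 4T1-CAT CAT-ABP + alum, replicate 3 was low for *H2-Q7* (59.7 CPM, the others 90 to 104).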

How the results depend on the processing

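Fewer than 10 counts lay behind some values of *H2-T24*, *H2-Q4* and *H2-T10* in the shallowest tumors, so small changes in these genes were not detectable there. The number of members that passed was the same or within 1.5 times in 83 of 84 fits under other settings, the exception being DESeq2 for CAT-ABP in 4T1-CAT (1 member), and in 109 of 109 fits without a tumor. Counts over all genes moved more, and the cause was not tested. With DESeq2 they were 1 for CAT-ABP in CT26, 6 for 4T1-CAT against 4T1-control, 204 for CAT-ABP in 4T1-CAT, 459 for 4T1-CAT with CAT-ABP against 4T1-control and 28 for 4T1-control against 4T1. Without the filter on low counts they were 1 for CAT-ABP in CT26, 16 in 4T1, 131 for 4T1-CAT against 4T1-control, 47, 532 and 130 for the last 3 of the comparisons just named, and 2 for the interaction. A model over all 7 groups gave 31 for 4T1-CAT with CAT-ABP against 4T1-control and 10 for 4T1-control against 4T1, and leaving out low-depth libraries gave 142 and 14. From technical replicate 1 alone the former was 0 and from replicate 2 alone 1. Replicate 2 alone gave 2849 genes between the lines in alum tumors, 3559 in CAT-ABP + alum tumors and 4865 over the 7 groups.

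Replicate numbers did not pair the tumors (r of same-numbered deviations from -0.29 to 0.33). With the replicate block, 3 genes passed for CAT-ABP in 4T1-CAT and 1 for 4T1-CAT with CAT-ABP against 4T1-control, and *H2-Q7* between the lines in CAT-ABP + alum tumors was at -0.015. Signs also turned for *H2-M3* in the CAT-ABP comparison of 4T1 with the pool as a block (0.027) and for *H2-T24* between the lines in CAT-ABP + alum tumors from technical replicate 1 (0.015). Leaving out a tumor moved that *H2-T24* value between -0.235 and 0.079 and that of *H2-Q7* between -0.093 and 0.144. It moved the genes passing from 0 to 1 for 4T1-CAT against 4T1-control (1 without 4T1-CAT replicate 3), from 0 to 1 for CAT-ABP in 4T1-CAT, from 0 to 6 for 4T1-control against 4T1 (6 without 4T1-control replicate 2), and from 0 to 575 for 4T1-CAT with CAT-ABP against 4T1-control (575 without 4T1-control replicate 3, 131 without replicate 2). Between the lines, *H2-Q7* in alum tumors and *H2-Q4* in CAT-ABP + alum tumors lost their calls in some of these fits, and *H2-T23* in CAT-ABP + alum tumors gained one with the 7-group model (adjusted p = 0.041) and from technical replicate 2 alone (0.027). *H2-Q4* in CAT-ABP + alum tumors lost its call from technical replicate 2 alone (adjusted p = 0.14), and *H2-Q7* in alum tumors from replicate 1 (0.065) or replicate 2 (0.105) alone.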
